A study of Mus musculus with 9 samples.

Results

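The enzymes that turn squalene into cholesterol were followed at the mRNA level in mouse liver. Their 9 genes, chosen by symbol from the table of 31964 gene IDs, are Sqle, Lss, Cyp51, Tm7sf2, Msmo1, Nsdhl, Hsd17b7, Ebp and Dhcr7. The 9 RNA sequencing libraries of liver comprised 3 of group M (replicates 24, 26 and 27), 3 of group A-C (replicates 6, 9 and 12) and 3 of group C (replicates 2, 3 and 4). The study concerns the NIAAA mouse model, in which alcohol is fed in a liquid diet, with or without magnesium isoglycyrrhizinate (MgIG), a drug derived from a liquorice compound. Which diet, dose or treatment each letter stands for is not given in the labels, nor are age, sex and the duration of feeding, so the groups are named by their letters. The mice are labelled C57BL6J, with C57BL7J written for C replicate 4.

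Cholesterol is built from acetyl-CoA through mevalonate to squalene, and squalene is then oxidised, folded into the first sterol, lanosterol, and trimmed in steps to cholesterol. The liver is a main site of this synthesis. The genes of the pathway are classic targets of the transcription factor that Srebf2 encodes, which is released to the nucleus when sterol in the endoplasmic reticulum is low and is held back when it is plentiful.

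The libraries held 45597163 to 65165613 recovered reads. The cell type label says hepatocyte, and each of the 13 hepatocyte markers looked for was above 1 TPM in all libraries, but so were all 10 endothelial markers and 11 of 13 Kupffer cell and macrophage markers, as in whole liver. Less RNA per cell and fewer cells of a type cannot be told apart in such samples. The summed hepatocyte markers lay between 84760 and 102207 scaled TPM in M, between 89337 and 150123 in A-C and between 158775 and 170483 in C. Acute phase genes, which encode plasma proteins made in inflammation, took 4.89%, 17.1% and 13.1% of the TPM in M replicates 24, 26 and 27, 3.87%, 9.56% and 23.4% in A-C replicates 6, 9 and 12, and 2.94% to 3.39% in C. Mitochondrially encoded RNA took 27.6% in C replicate 2 and between 11.98% and 15.4% elsewhere. No label tells whether the replicates are separate animals, so the tests speak of the spread between these libraries, which may be technical. No batch is labelled either, and handling and group cannot be told apart. Levels are TPM, reads per exon length scaled to a common total, after TMM scaling between libraries, and carry the SD over 3 libraries after the ± sign. Changes between groups were taken from log2(TPM + 1), so those of weakly expressed genes are understated. Adjusted p-values are those of limma over 11086 tested genes.

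All 9 genes are protein-coding on mm10 and had the same position in the GENCODE M21 annotation. Sqle lies on chromosome 15 (59315077 to 59331192), Lss on 10 (76531588 to 76557138), Cyp51 on 5 (4081145 to 4104746), Tm7sf2 on 19 (6062821 to 6068373) and Msmo1 on 8 (64718139 to 64733792). Hsd17b7 lies on chromosome 1 (169949535 to 169969241), Dhcr7 on 7 (143823145 to 143848410), and Nsdhl (72918557 to 72958514) and Ebp (8185329 to 8193512) both on X. Each gene was tested, and the fewest reads behind any of their values were the 141 of Sqle in M replicate 24. Exons of Tm7sf2 share 532 bases with Vps51 on the same strand, those of Cyp51 share 166 bases with Akap9 on the other strand, and those of Lss share 381 bases with the antisense gene 4930483K19Rik. Reads of these stretches may be split or mixed, since the use of strand in counting is not known. The partners were low, at mean scaled TPM of 4.82 for Vps51, 3.05 for Akap9 and 0.0893 for 4930483K19Rik over the 9 libraries.

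Promoter sequences are shown for 5 of the genes because most of the group moved together. They are Cyp51, Nsdhl and Hsd17b7, which fell in M against A-C, Msmo1, which had a larger mean difference than Cyp51 without passing the test, and Ebp, which moved least. Each window is RefSeq sequence of build GRCm38.p6, from 250 bases before to 50 bases after an annotated start, and is printed 5′ to 3′ on the gene's strand. Capitals mark the CCAAT element (letters CCAAT) and the GC element (letters GGGCGG) on either strand.
Cyp51 (chr5:4104648-4104947, minus strand): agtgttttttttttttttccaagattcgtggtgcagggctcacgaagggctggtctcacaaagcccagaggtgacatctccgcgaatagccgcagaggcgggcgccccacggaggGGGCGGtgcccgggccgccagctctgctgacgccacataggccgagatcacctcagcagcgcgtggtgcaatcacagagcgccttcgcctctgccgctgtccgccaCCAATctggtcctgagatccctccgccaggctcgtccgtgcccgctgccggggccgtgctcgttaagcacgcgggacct
Msmo1 (chr8:64733529-64733828, minus strand): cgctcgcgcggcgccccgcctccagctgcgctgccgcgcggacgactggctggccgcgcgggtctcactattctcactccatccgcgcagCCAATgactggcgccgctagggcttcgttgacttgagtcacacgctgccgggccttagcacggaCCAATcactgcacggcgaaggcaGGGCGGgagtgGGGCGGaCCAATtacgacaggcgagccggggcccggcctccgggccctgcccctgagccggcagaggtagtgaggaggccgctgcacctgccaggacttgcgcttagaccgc
Nsdhl (chrX:72918271-72918570, plus strand): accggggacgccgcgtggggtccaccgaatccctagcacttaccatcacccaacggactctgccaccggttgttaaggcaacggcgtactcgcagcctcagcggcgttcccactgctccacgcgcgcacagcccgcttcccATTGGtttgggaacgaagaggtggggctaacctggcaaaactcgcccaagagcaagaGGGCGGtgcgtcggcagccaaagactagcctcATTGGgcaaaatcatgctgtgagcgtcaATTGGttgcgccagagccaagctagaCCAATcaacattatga
Hsd17b7 (chr1:169969156-169969455, minus strand): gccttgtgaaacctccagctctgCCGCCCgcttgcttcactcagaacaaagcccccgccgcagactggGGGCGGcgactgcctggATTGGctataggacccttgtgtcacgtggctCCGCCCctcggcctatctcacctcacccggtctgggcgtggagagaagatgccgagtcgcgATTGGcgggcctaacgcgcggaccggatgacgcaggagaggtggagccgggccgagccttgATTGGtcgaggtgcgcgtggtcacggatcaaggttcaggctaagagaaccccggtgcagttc
Ebp (chrX:8193463-8193762, minus strand): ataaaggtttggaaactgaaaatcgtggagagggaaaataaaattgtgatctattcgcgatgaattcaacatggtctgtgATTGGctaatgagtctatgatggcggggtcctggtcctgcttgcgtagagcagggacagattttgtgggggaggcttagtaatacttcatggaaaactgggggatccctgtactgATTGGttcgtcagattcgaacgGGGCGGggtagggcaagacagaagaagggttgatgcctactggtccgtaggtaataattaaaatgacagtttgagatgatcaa

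RefSeq windows were found for 8 of the 9 genes, all but Sqle, with 3 windows for Dhcr7. A CCAAT element stood in at least 1 window of each of these 8 genes, against 41.1% of the 27025 genes that have a window, and in 8 of the 10 windows, against 37.4% of all 32851. The GC element stood in a window of each of the 8 genes too, against 38.2% of all genes, and in 9 of 10 windows, against 35.7% of all. A sterol-type element, searched as TCACNCCAC on both strands, was in none of the 10 windows and in 1.24% of all windows. At so low a share, finding none in 10 windows carries no information. Variants of this element were not searched, so these genes cannot be said to lack one. None of the 33 matches in these windows overlapped another. Base composition was not matched in these shares, and a match is not a shown binding site.

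**Figure D1:**
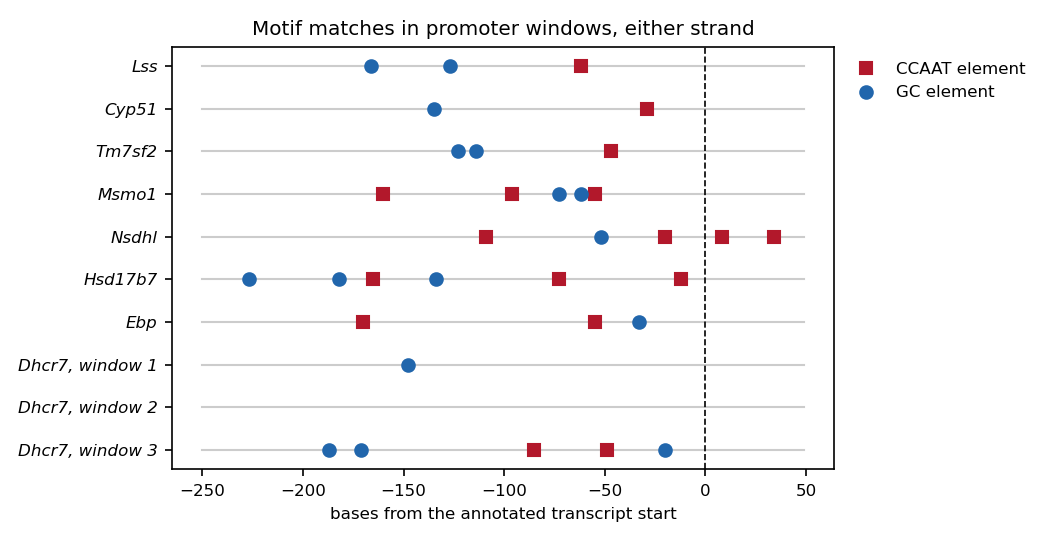
Positions of the CCAAT element (red squares) and the GC element (blue circles) in promoter windows, by distance in bases from the annotated transcript start, with 1 line per window and 3 for Dhcr7. Each of the 8 genes holds both elements in at least 1 window, and Ebp, whose mRNA moved least, holds both as well.

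The first comparison set M against A-C. All 9 genes had lower means in M, and 6 of them, Sqle, Lss, Cyp51, Tm7sf2, Nsdhl and Hsd17b7, passed the test as lower, while none passed as higher. Of all tested genes 0.135% were called lower in this comparison, which is 15 genes, 0.0361% were called higher and 0.171% in either direction. The highest M library lay below the lowest A-C library for each of the 9 genes, a pattern found in that direction for 8.52% of all tested genes. Their median log2 fold change was -1.89, against 0.02 over all tested genes. Of the 9 genes 1 was called when low genes were not filtered out, 1 when the fit held only the libraries of M and A-C, and 1 when M replicate 26, M replicate 27 or A-C replicate 9 was left out. Leaving out A-C replicate 6 left 2. The direction was lower in all 153 values that 17 alternative settings gave for these genes.

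Sqle, which encodes squalene epoxidase, the enzyme that makes the first oxygenated intermediate and a point of control of the pathway, moved furthest. Its level was 1.02, 1.01 and 1.41 scaled TPM in M replicates 24, 26 and 27, against 20.7, 22.3 and 31.1 in A-C replicates 6, 9 and 12. The 3 M libraries were close to each other and far below any A-C library. The M mean of 1.15 ± 0.226 was 4.64% of the A-C mean of 24.7 ± 5.57. The log2 fold change was -3.57 (SE 0.21, adjusted p = 0.000336), the largest fall of any tested gene on the log2(TPM + 1) scale. Gstm3 at -3.53 and Idi1 at -3.35 were close, and the rank was not compared across the alternatives. Sqle was called in each of the 17 alternatives, with adjusted p between 5.41e-05 and 0.00521. On the recovered reads, with no pseudocount added to TPM, limma-voom gave -4.42 (SE 0.28).

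Lss encodes the synthase that folds the epoxide into lanosterol. It stood at 3.76, 3.50 and 3.71 scaled TPM in the M libraries, against 8.44, 6.74 and 9.64 in A-C. The M values differed little, and the groups did not overlap. Lss fell by 0.98 on the log2 scale (SE 0.14, adjusted p = 0.0326), a call kept in 6 of 17 alternatives and in none of the 9 that left out a library (adjusted p 0.0526 to 0.148 in those 9). The 95% interval was -4.04 to -3.09 for Sqle and -1.29 to -0.67 for Lss. In each library the Sqle level was divided by that of Lss, and the ratio was 0.270, 0.290 and 0.380 in M, against 2.45, 3.31 and 3.22 in A-C and 1.91, 2.598 and 3.13 in C. Sqle mRNA was the more abundant of the pair in every A-C and C library, and Lss mRNA in every M library.

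**Figure D2:**
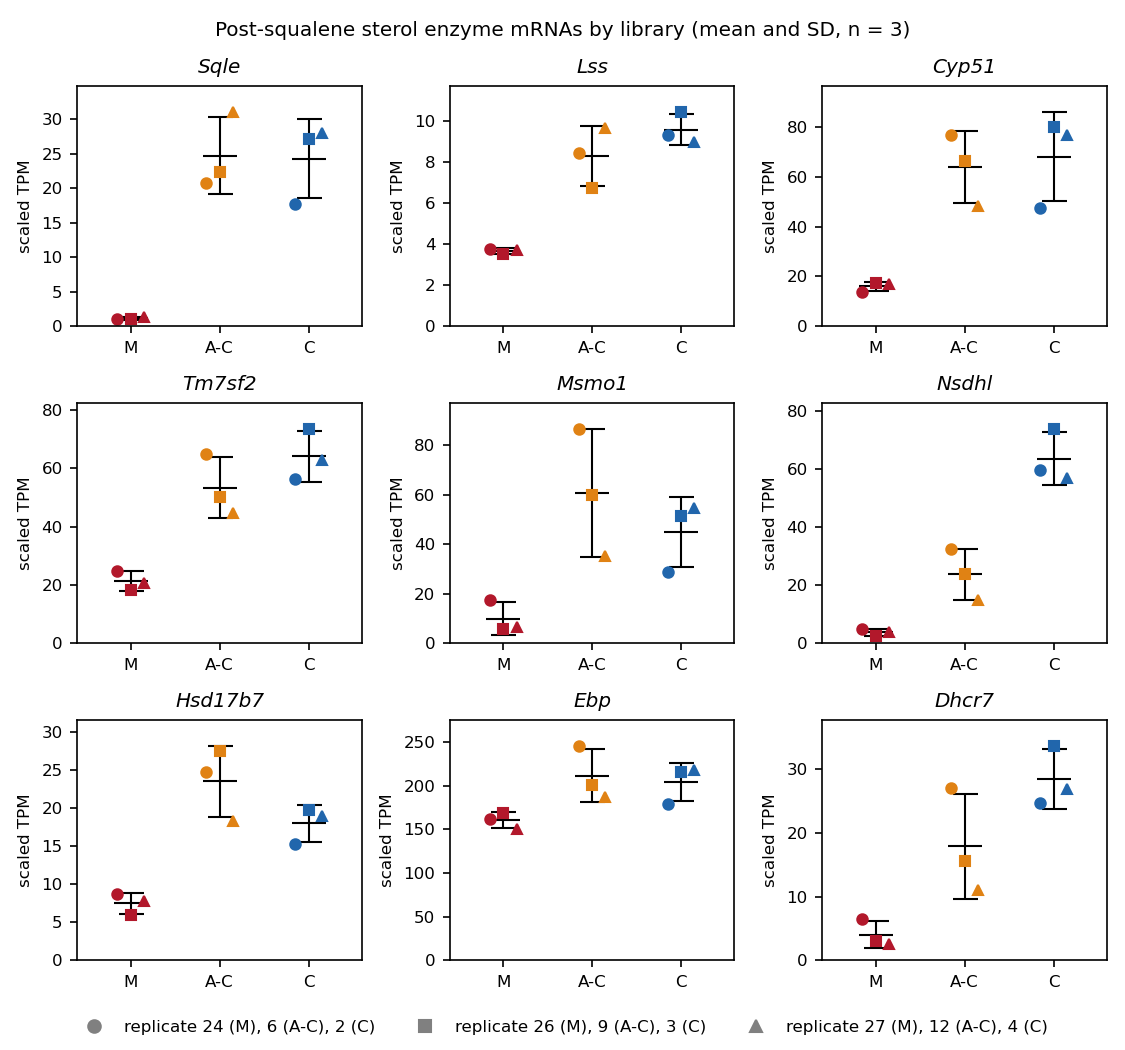
Scaled TPM of each gene in every library (points, with a symbol per replicate), in M (red), A-C (orange) and C (blue), with the group mean and SD (n = 3) in black. Sqle lies between 1.01 and 1.41 in M and at 17.7 or more in every other library, while the Ebp values of M, 151 to 169, are close below those of A-C and C.

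Cyp51 and Tm7sf2 act next on lanosterol. Cyp51, the lanosterol demethylase and a cytochrome P450, stood at 13.7, 17.3 and 17.0 scaled TPM in M, against 76.8, 66.3 and 48.3 in A-C. Its fall of 1.91 log2 (SE 0.24, adjusted p = 0.0178) was called in 11 of 17 alternatives, with adjusted p between 0.00525 and 0.0966. Tm7sf2 encodes a reductase that removes the double bond Cyp51 leaves. Its values were 24.9, 18.3 and 20.8 in M, against 65.1, 50.2 and 44.8 in A-C, and it fell by 1.28 log2 (SE 0.18, adjusted p = 0.0387, called in 8 of 17 alternatives, 0.00205 to 0.196). The lamin B receptor, encoded by Lbr, carries out the same reduction and was low in all groups, with means of 3.50 ± 1.20 in M and 3.94 ± 0.408 in A-C, a difference of -0.16 log2 (adjusted p = 0.785). Tm7sf2 mRNA was 8.81, 6.60 and 4.25 times as abundant as Lbr mRNA in M, against 17.8, 13.4 and 10.2 times in A-C and 28.0, 36.4 and 27.3 times in C.

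Msmo1, Nsdhl and Hsd17b7 encode the enzymes that together take the extra methyl groups off the sterol: an oxidase, a dehydrogenase that also releases the carbon, and a ketone reductase. Nsdhl, whose loss causes CHILD syndrome in humans, stood at 4.82, 2.67 and 3.85 scaled TPM in M, against 32.5, 23.9 and 14.8 in A-C. It fell by 2.33 log2 (SE 0.27, adjusted p = 0.0177, called in 12 of 17 alternatives, 0.000219 to 0.128). Hsd17b7 stood at 8.73, 5.99 and 7.83 in M, against 24.7, 27.5 and 18.4 in A-C, and fell by 1.52 log2 (SE 0.19, adjusted p = 0.0178, called in 11 of 17 alternatives, 0.00243 to 0.128). For both genes the A-C libraries were spread over a wider range of TPM than the M libraries without reaching them. Msmo1 was at 17.7, 5.78 and 6.56 in M, against 86.7, 60.1 and 35.2 in A-C. The groups of Msmo1 did not overlap, but M replicate 24 stood far above the other M libraries, and a log2 fold change of -2.56 (SE 0.45) did not pass (adjusted p = 0.0931). Without M replicate 24 it was -3.02 (adjusted p = 0.0327), and over the alternatives the adjusted p of Msmo1 ran from 0.00205 to 0.365.

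Ebp and Dhcr7 encode late enzymes, an isomerase that shifts a ring double bond and the reductase that makes cholesterol itself from dehydrocholesterol. Their loss causes Conradi-Hünermann-Happle and Smith-Lemli-Opitz syndrome in humans. Ebp was the most abundant of the 9 mRNAs in each library. Its level was 163, 169 and 151 scaled TPM in M, against 246, 201 and 188 in A-C. These ranges lie next to each other without overlap, and the log2 fold change of -0.39 (95% interval -0.73 to -0.04) did not pass (adjusted p = 0.385). Dhcr7 stood at 6.45, 3.07 and 2.61 in M, against 26.95, 15.5 and 11.1 in A-C. Again M replicate 24 stood above the other M libraries, and -1.89 log2 (SE 0.34) did not pass (adjusted p = 0.0936). Without M replicate 24 the value of Dhcr7 was -2.21 (adjusted p = 0.0405), and over the alternatives its adjusted p ran from 0.000693 to 0.374.

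**Figure D3:**
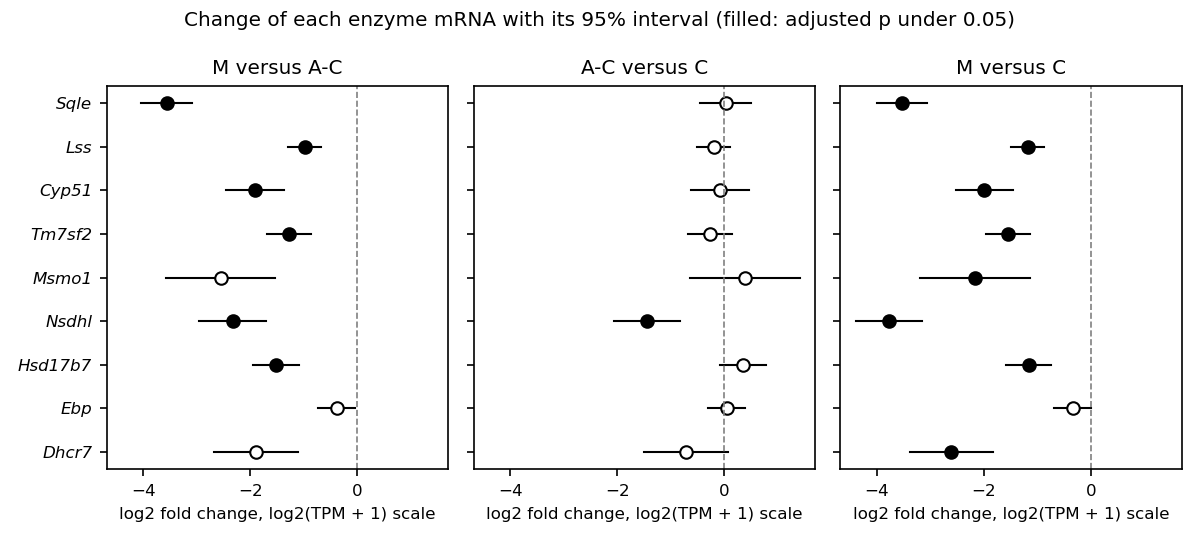
Log2 fold change of each gene on the log2(TPM + 1) scale with its 95% interval, in pathway order from the top, for M versus A-C, A-C versus C and M versus C. Filled points have an adjusted p under 0.05: 6 of 9 genes in the first panel, Nsdhl in the second, and 8 of 9 in the third.

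The summed level of the 9 mRNAs was 244, 227 and 214 scaled TPM in M, against 588, 474 and 401 in A-C and 438, 585 and 552 in C. Ebp alone made up 66.7% to 74.5% of that sum in M, 41.8% to 46.8% in A-C and 36.8% to 40.9% in C. Sqle made up 0.417% to 0.656% in M, 3.52% to 7.75% in A-C and 4.05% to 5.07% in C. The largest mRNA thus took a bigger part in M. Within groups the genes also moved with the library. In A-C 7 of the 9 genes were lowest in replicate 12, which had the largest acute phase share, while Sqle and Lss were highest there. In M 6 genes were highest in replicate 24, which had the smallest acute phase share of that group. In C 7 genes were lowest in replicate 2, the library with the large mitochondrial share. The average of the acute phase genes, itself a measured outcome, was also added to the fit. With it 8 of 9 genes were called lower in M than in A-C, against 6 without it. Over all tested genes 138 were called lower with it, against 15 without it, so calls rose outside the 9 genes too. The part of the mitochondrial share in the results was not tested. Whether the order of libraries within a group goes with either share was not tested, and that order was not set against all genes.

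The second comparison set A-C against C. Of the 9 genes 1 was lower in A-C, Nsdhl, and none was higher, while 7.17% of all tested genes were called lower, 9.71% higher and 16.9% in either direction. The median log2 fold change of the 9 was -0.08, against 0.03 over all tested genes. In the TPM as deposited the median over all genes was 0.22, and of the genes called 2385 were higher and 404 lower, while after TMM scaling 1076 were higher and 795 lower. Nsdhl stood at 32.5, 23.9 and 14.8 scaled TPM in A-C, against 59.7, 73.8 and 57.0 in C. The groups did not overlap, which held for Nsdhl alone of the 9 genes and in that direction for 18.4% of all genes. Nsdhl fell by 1.44 log2 (SE 0.27, adjusted p = 0.0134), and the call was lost without C replicate 3 (adjusted p = 0.0596, 0.00921 to 0.0596 over all alternatives). With the acute phase covariate the change of Nsdhl was -0.79 log2 (adjusted p = 0.0357).

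The remaining 8 genes did not pass in A-C against C, and their groups overlapped. Sqle averaged 24.7 ± 5.57 scaled TPM in A-C and 24.3 ± 5.68 in C, with a 95% interval of -0.44 to 0.50 log2 for the difference. Cyp51 averaged 63.8 ± 14.4 in A-C and 68.0 ± 18.0 in C (interval -0.62 to 0.46), and Ebp 212 ± 30.4 in A-C and 204 ± 21.6 in C (interval -0.30 to 0.39). For these 3 genes the data leave room for changes of up to about those bounds. Dhcr7 averaged 17.9 ± 8.19 in A-C and 28.4 ± 4.67 in C (log2 change -0.72, adjusted p = 0.172). It passed as lower without A-C replicate 6 (log2 change -1.05, adjusted p = 0.0493), and over the alternatives its adjusted p ran from 0.0493 to 0.590. Msmo1 averaged 60.7 ± 25.7 in A-C and 44.9 ± 14.1 in C, the widest interval of the set (-0.64 to 1.41, adjusted p = 0.569). With the acute phase covariate Msmo1 passed as higher in A-C, by 1.46 log2 (adjusted p = 0.0254), and over the alternatives its adjusted p ran from 0.0254 to 0.909. Hsd17b7 averaged 23.6 ± 4.70 in A-C and 18.0 ± 2.41 in C, with adjusted p = 0.210. Lss and Tm7sf2 had log2 fold changes of -0.20 and -0.27 (adjusted p = 0.329 and 0.318).

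The third comparison set M against C, and the 3 comparisons share libraries, since each group enters 2 of them. Of the 9 genes 8 were lower in M, none was higher and Ebp did not pass, where 6.72% of all tested genes were called lower, 9.31% higher and 16% in either direction. For each of the 9 the highest M library lay below the lowest C library, as it did for 17.9% of all genes. The median log2 fold change of the 9 was -1.99, against 0.05 over all tested genes, while in the TPM as deposited the median over all genes was 0.27. There 2931 genes were called higher and 351 lower, and after TMM scaling 1032 higher and 745 lower. Of the 9 genes Nsdhl had the largest fall on the log2(TPM + 1) scale, at 3.78 ± 1.07 scaled TPM in M against 63.5 ± 9.02 in C (-3.77 log2, SE 0.27, adjusted p = 0.000636). The M mean of Nsdhl was 5.95% of the C mean. Sqle followed, with an M mean of 1.15 ± 0.226 that was 4.72% of the C mean of 24.3 ± 5.68 (-3.54 log2, SE 0.21, adjusted p = 0.00012). By percent of the C mean Sqle fell further than Nsdhl. With the pseudocount of 0.1 Sqle also led, at -4.28 log2 against -4.06 for Nsdhl, as it did with limma-voom (-4.39 against -4.10). Dhcr7 stood at 4.04 ± 2.10 in M against 28.4 ± 4.67 in C (log2 change -2.61, adjusted p = 0.00522). Msmo1, Cyp51, Tm7sf2, Lss and Hsd17b7 fell by 2.17, 1.99, 1.55, 1.18 and 1.17 log2. The call of Msmo1 was lost without M replicate 26, M replicate 27, C replicate 3 or C replicate 4 (adjusted p 0.0599, 0.0872, 0.0800 and 0.0532), where its change lay between -2.05 and -1.90 log2. It was also lost with the acute phase covariate, where the change was -1.03 log2 (adjusted p = 0.0819, 0.00686 to 0.0872 over the alternatives). With that covariate Dhcr7 changed by -1.68 log2 and remained called (adjusted p = 0.00537). That of Hsd17b7 was lost without C replicate 3 (adjusted p = 0.0505, 0.0057 to 0.0505 over the alternatives). Ebp averaged 161 ± 9.23 in M and 204 ± 21.6 in C (log2 change -0.34, 95% interval -0.69 to 0.0050, adjusted p = 0.148).

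Across the 3 groups the genes thus followed more than 1 order. For Sqle and Cyp51 M was lower than either other group, while A-C and C differed by less than the spread between their libraries. Ebp also had its lowest mean in M, but none of its differences passed. Nsdhl had its lowest level in M, an intermediate one in A-C and its highest in C, and each neighbouring pair passed the test. The ratio of Nsdhl to Hsd17b7, enzymes of the same series of reactions, was 0.552, 0.447 and 0.491 in M, against 1.32, 0.868 and 0.805 in A-C and 3.90, 3.72 and 3.00045 in C. The ranges of that ratio were apart in all groups. They are a description and were not tested.

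The other genes of the pathway were read from lists made with earlier results of these data known. The median log2 fold change of 10 genes listed from acetyl-CoA to squalene was -1.18 in M against A-C. Of these, Ggps1 lies on a side branch and not on the route to squalene. Of these 10 genes 2 were called lower, against 0.135% of all tested genes, and none higher. These were Idi1, the isopentenyl diphosphate isomerase gene, at 1.43 ± 0.695 scaled TPM in M against 23.8 ± 7.08 in A-C (log2 change -3.35, adjusted p = 0.0117), and Hmgcs1, the gene of cytosolic HMG-CoA synthase, at 24.4 ± 1.78 in M against 86.4 ± 19.2 in A-C (log2 change -1.76, adjusted p = 0.0176). Fdft1, the squalene synthase gene, had 22.5 ± 11.1 scaled TPM in M against 53.9 ± 23.4 in A-C (adjusted p = 0.282). Against C, 7 of these 10 genes were lower in M, where 6.72% of all tested genes were called lower. In A-C Idi1 was higher than in C (log2 change 1.60, adjusted p = 0.0185), where 9.71% of all tested genes were called higher. Whether the 9 genes after squalene changed more than these 10 was not tested.

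Among the steps after squalene that are not covered by the 9 genes is that of Sc5d, a desaturase. Sc5d stood at 77.1, 45.8 and 55.9 scaled TPM in M, against 163, 110 and 56.9 in A-C (adjusted p = 0.441), with M replicate 24 above A-C replicate 12. It was lower in M than in C, where it averaged 184 ± 26.5 (log2 change -1.63, adjusted p = 0.0215). Among 11 measured partners of the late steps, which include Sc5d, Lbr and electron donors such as Por, 0 passed in M against A-C by limma (median -0.31, and Por at -0.31 with adjusted p = 0.851), 2 rose and 1 fell in A-C against C, and 3 fell in M against C. Of all tested genes 9.71% were called higher and 7.17% lower in A-C against C, and 6.72% lower in M against C. The 1 of 11 that fell in A-C against C is near that share. Genes of that list with an unadjusted p under 0.05 in M against A-C numbered 3, and limma-voom called 0. By limma 1274 of all 11086 tested genes had such a p there.

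**Figure D4:**
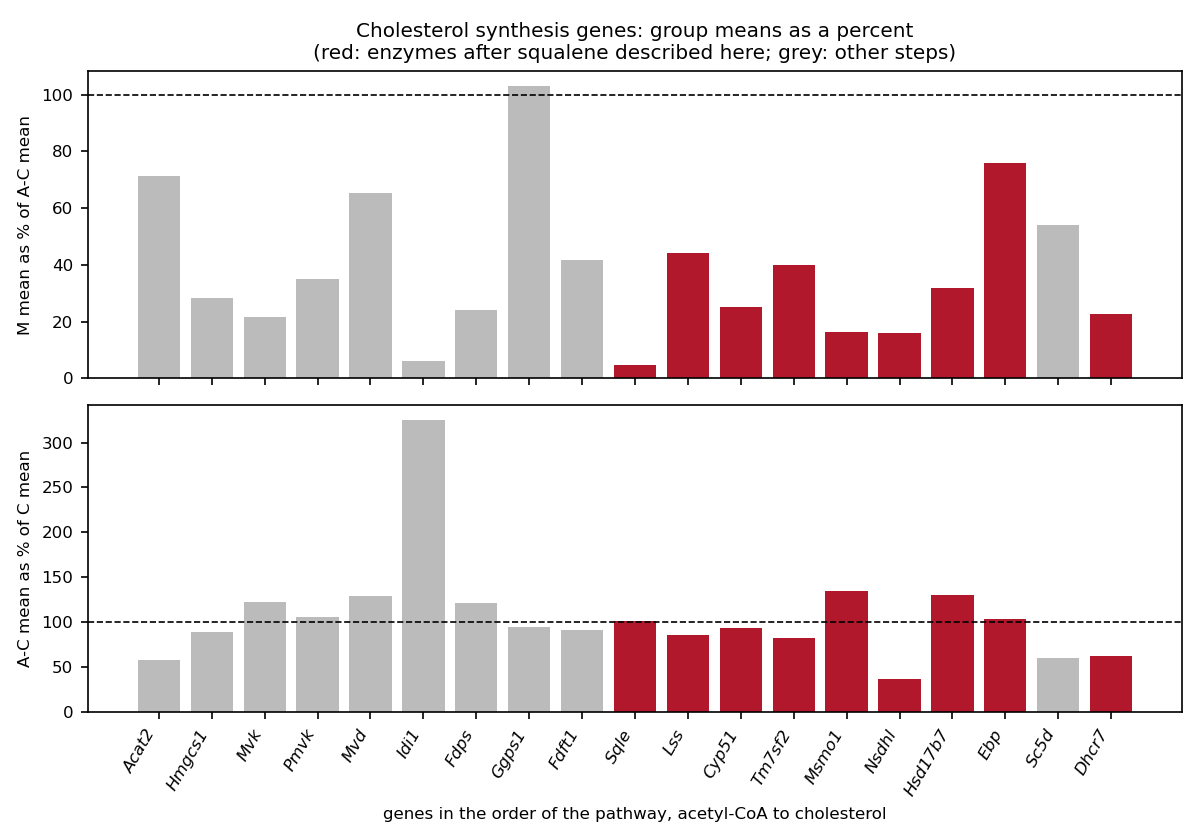
Group means of 19 cholesterol synthesis genes in pathway order, as the M mean in percent of the A-C mean (top) and the A-C mean in percent of the C mean (bottom), with the 9 enzymes after squalene in red and other steps in grey. In the top panel Sqle (4.64%) and Idi1 (6.01%) are lowest. Ggps1 (103%), which lies on a side branch and not on the route to cholesterol, is the only gene above 100%. In the bottom panel Idi1 (325%) is highest and Nsdhl (37.4%) lowest.

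Among 13 genes for sterol sensing and LDL uptake, 0 passed in M against A-C by limma (median -0.49), 7 had an unadjusted p under 0.05 and limma-voom called 0. Such a p by limma was found for 1274 of all 11086 tested genes in that comparison. Srebf2 stood at 10.05 ± 1.16 scaled TPM in M against 19.6 ± 2.65 in A-C, and its groups did not overlap (log2 change -0.89, adjusted p = 0.0538). It was higher in A-C than in C, where it averaged 12.1 ± 0.729 (log2 change 0.64, adjusted p = 0.0193). Insig1, which encodes a protein that holds the factor back when sterol is plentiful, averaged 78.3 ± 34.5 in M, 136 ± 41.3 in A-C and 166 ± 39.0 in C and passed in no comparison (adjusted p 0.0592 to 0.562). Insig2 was higher in A-C than in C and in M than in C (log2 change 1.47 and 1.06, adjusted p = 0.00728 and 0.022). Among 7 genes for the breakdown of sterol enzymes, Marchf6, which encodes the ubiquitin ligase that marks squalene epoxidase for degradation, averaged 30.9 ± 2.06 in M and 38.7 ± 2.07 in A-C (adjusted p = 0.391). It was higher than in C (19.0 ± 2.27) in both, by 0.68 log2 in M and 0.99 log2 in A-C (adjusted p = 0.0148 and 0.00376).

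Each gene's log2 level followed the mean of the other 8 over the 9 libraries, with Pearson's r between 0.86 for Ebp and 0.99 for Tm7sf2. Outside the set, genes whose log2 levels were most like the mean of the 9 genes, each first scaled to the same spread, were Hmgcs1 (r = 0.99), Tmem97 (0.97), Pmvk (0.96), Mvk (0.96), Ociad1 (0.96), H2-Q10 (0.95) and Nenf (0.95). Hmgcs1, Pmvk and Mvk encode enzymes of the mevalonate steps. These correlations are descriptions over 9 libraries that share 3 groups. A high r does not need a large difference: Ociad1 stood at 35.6 ± 1.998 scaled TPM in M, 43.5 ± 1.29 in A-C and 42.2 ± 0.314 in C.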

How the data were processed

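The data are 9 RNA sequencing libraries of mouse liver, 3 per group. The authors deposited 1 table of TPM per gene and library with exon coordinates and lengths, per the file headers, with mm10 as the build named in the submitters' processing notes. How reads were aligned and counted, with which annotation release and whether by strand, is not given in the sources used here. Of 32248 lines, 452 repeated 168 gene IDs with equal values and were kept once, which left 31964 gene IDs. TPM times length gave whole reads within 0.1 for 99.965% to 100% of values, and 45597163 to 65165613 reads per library. TMM factors (trim 30% and 5%) from these reads scaled the TPM. limma 3.58.1 in R 4.3.3 (empirical Bayes with trend, robust) was fitted to log2(TPM + 1) over all 9 libraries, with 6 residual degrees of freedom, for 11086 genes with TPM of at least 1 in at least 3 libraries, and Benjamini-Hochberg adjusted p under 0.05 was called. The fit was also run on data simulated with noise independent between genes. Such data leave out spread that genes share within a library, and the outcome is not reported here. The 9 genes, the gene lists and the tests were chosen with earlier results of these data known. Named genes were the 9 members, 11 further sterol genes, up to 3 called genes with the largest change per list and comparison, and the 8 genes with the highest correlation. Some genes under this rule are not reported here. Marchf6 in M against A-C and Ociad1 were given more values after these were seen. Alternatives were the scaling, the pseudocount (0.1), the filter, the libraries fitted, the variance model, an acute phase covariate, each library left out, and limma-voom on the recovered reads, which was added after seeing the data.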

Additional observations from a re-analysis of the deposited data

How the results depend on the processing

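Over 17 alternatives, the 153 values of the 9 genes were lower in M than in A-C, with 112 on the same side of the threshold, 37 no longer called and 4 newly called. In M against C all 153 were lower and 6 lost the call. Genes lower in M than in A-C numbered 6 of 9, but 1 with no filter on low values, 1 with only the 6 libraries of both groups, and 1 to 7 leaving out a library. The count of all genes called in this comparison was 19, but 6 with no filter, 2 with the 6 libraries, 256 with the acute phase covariate and 3 to 30 leaving out a library. In M against C, 8 of the 9 genes were called, and 6 to 8 leaving out a library. All genes called there numbered 1777, but 3282 in the TPM as deposited, 1089 with no filter, 944 with the covariate and 191 to 2511 leaving out a library. In A-C against C, 1 of the 9 was called, 2 with the covariate (Nsdhl lower and Msmo1 higher) and 0 to 2 leaving out a library, and 1871 genes in all, with 331 to 2193 leaving out a library.

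The sign changed in A-C against C for values that passed in no setting where they turned. Cyp51 (-0.08) was 0.15 in the TPM as deposited and 0.085 with the covariate, Lss (-0.20) was 0.0082 in the TPM as deposited, and with the covariate Dhcr7 (-0.72) was 0.16, Tm7sf2 (-0.27) 0.092 and Sqle (0.03) -0.25. Leaving out a library, Cyp51 ran from -0.32 to 0.11, Ebp (0.05) from -0.066 to 0.13 and Sqle from -0.17 to 0.14. The cause was not tested. No paired analysis was possible because the groups share no replicate numbers. The values of the 9 genes rest on 3 libraries per group and on 141 reads or more each, and counting error was not separated from the spread between libraries.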

Other observations

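Genes of fatty acid synthesis, which share regulators with the sterol genes, included 7 of 14 that were lower in M than in C and 5 of 14 that A-C had lower than C, with none higher. The shares of all tested genes called lower there were 6.72% and 7.17%. In M against A-C 0 of 14 passed by limma, 4 had an unadjusted p under 0.05 and limma-voom called 0 (median 0.16). Over all tested genes 1274 of 11086 had an unadjusted p under 0.05 by limma in that comparison. Fasn, the fatty acid synthase gene, averaged 21.1 ± 3.59 scaled TPM in M, 37.6 ± 15.1 in A-C and 186 ± 19.1 in C (log2 change -2.36 in A-C against C, adjusted p = 0.00353). Srebf1, which encodes the related factor that drives lipogenesis, averaged 34.3 ± 14.1 in M, 14.7 ± 6.99 in A-C and 53.8 ± 10.2 in C and was lower in A-C than in C (log2 change -1.88, adjusted p = 0.0169). Among 7 genes of cholesterol esters and oxysterols, 2 were higher than in C in both A-C and M. The shares of all tested genes called higher than in C were 9.71% in A-C and 9.31% in M. Cyp39a1, an oxysterol hydroxylase gene, averaged 59.8 ± 8.24 in M, 55.7 ± 8.49 in A-C and 18.1 ± 1.41 in C. Its adjusted p by limma was 0.00217 for M and 0.00172 for A-C, each against C. Of 8 tested genes of bile acid synthesis, 0 passed by limma in M against A-C, where 1 had an unadjusted p under 0.05 and limma-voom called 0 (median 0.15). That 1 of 8 is near the share over all tested genes with such a p, 1274 of 11086. Among 9 genes of cholesterol efflux, 1 was lower in M than in C, Pltp, and 1 in A-C than in C, Abcg5, counts near the 6.72% and 7.17% of all tested genes that were called lower in these comparisons.

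Among the cell markers and acute phase genes, calls are given beside the 9.31% of all tested genes called higher in M than in C and the 9.71% called higher in A-C than in C. Called lower were 6.72% of all tested genes in M against C and 7.17% in A-C against C. Endothelial markers were higher in M than in C for 2 of 10 and in A-C than in C for 7 of 10, and their sum ran from 89.1 to 123 scaled TPM in M, 158 to 174 in A-C and 62.2 to 99.2 in C. In M against A-C 0 of 10 passed by limma, 9 had an unadjusted p under 0.05 and limma-voom called 0 (median -0.58). Over all 11086 tested genes, 1274 had an unadjusted p under 0.05 by limma in M against A-C and 3887 in M against C. Kupffer cell markers were higher in M than in C for 1 of 11 and in A-C than in C for 4 of 11. Of 10 stellate cell markers, 1 was higher and 3 lower in M than in C, while A-C against C had 1 of each. Of 4 tested B, T and NK cell markers, 2 (Igkc and Ighm) were lower in M than in C, and the same 2 lower in A-C than in C. Erythroid markers summed to 282 to 1117 scaled TPM in M, 152 to 332 in A-C and 472 to 759 in C. Of 5 tested, 0 passed in M against A-C by limma, 4 had an unadjusted p under 0.05 and limma-voom called 0 (median 1.44), while A-C against C had 2 lower and none higher. Of 4 cholangiocyte and 4 neutrophil markers tested, 0 passed by limma or limma-voom in any comparison, and an unadjusted p under 0.05 was seen for 2 neutrophil markers in M against C and for 0 of the others. Acute phase genes were higher in M than in C for 11 of 30 with 1 lower, and in A-C than in C for 9 of 30. Of the adipocyte markers Cfd was tested and averaged 14.4 ± 7.005 in M, 1.03 ± 0.517 in A-C and 3.86 ± 1.90 in C (log2 change 2.87 in M against A-C, adjusted p = 0.0178). Limma-voom did not call Cfd in that comparison.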
